A study of Homo sapiens with 2 samples.

Results

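The genes described here make cholesterol and fatty acids: enzymes of the sterol branch, the proteins that sense sterols and switch both branches on, and enzymes of the fatty acid branch. They were taken from a list of 34 genes (18 sterol enzymes, 5 regulators and 11 fatty acid genes), of which 32 had a probe with a gene name. A gene was kept where a probe had a detection p below 0.01 on at least 1 array, and its value is that of its brightest detected probe. This left 29 genes (17 sterol enzymes, 3 regulators and 9 fatty acid genes) among 10430 detected genes, and all 29 were detected on both arrays. The samples were cultures of HCT116, a colorectal carcinoma line, labelled p53+/+ and grown in DMEM with serum. At 80% confluence 1 culture received control vehicle and 1 received 10 nM SB590885, an ATP-competitive RAF kinase inhibitor. How long the cells were treated is not stated in those labels.

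There was 1 Illumina bead array for each culture, so no difference below has a replicate error or a p-value, and every ratio compares those arrays. Intensities are in arbitrary units on a linear scale, normalized by the authors with background left in, which shrinks the ratios of dim probes. Of 47318 probes, 33.7% were detected on the vehicle array and 35.3% on the SB590885 array. Among 10 epithelial and colon markers 6 were detected, EPCAM, CDH1, KRT8, KRT18, KRT19 and CDX2, while KRT20, VIL1, CDX1 and LGALS4 were not. Of the markers of other cells with a named probe, 1 of 6 leukocyte, 3 of 6 stromal, 1 of 5 endothelial and erythroid and 2 of 6 hepatocyte and adipocyte genes were detected. These 7 were CD68, COL1A1, COL1A2, DCN, HBA1, ALB and LEP. Their intensities ran from 110.3 to 276.1 with vehicle and from 121.4 to 289.3 with SB590885. The 6 epithelial and colon markers ran from 207.5 (KRT18) to 4420.2 (EPCAM) with vehicle. KRT18 and CDX2 (253.7) thus lay within the vehicle range of the other markers. Those not detected included PTPRC, CD3E, COL3A1, LUM, PECAM1, APOA1 and ADIPOQ.

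Cells build cholesterol from acetyl-CoA through mevalonate, the isoprenoid farnesyl diphosphate, squalene and lanosterol, and build fatty acids from the same acetyl-CoA through malonyl-CoA. The transcription factors SREBP-1 and SREBP-2 (genes SREBF1 and SREBF2) drive these enzymes. They sit in the endoplasmic reticulum with SCAP, which carries them to the Golgi for cleavage when sterols are scarce, while INSIG proteins hold SCAP back when sterols are plentiful. INSIG1 is itself an SREBP target. In cultured tumour cells in serum, both the uptake and the synthesis of these lipids contribute to growing membranes.

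The sterol genes did not differ as a block. HMGCS1 and ACAT2, enzymes of the first steps, were lower with SB590885 by 1.95-fold and 1.62-fold, and SQLE, which opens the steps from squalene to sterols, was 1.77-fold higher. These 3 were the only genes of the 29 past 1.5-fold, all in the sterol branch. Each array read the RNA of a whole culture, so less RNA per cell and fewer cells with that RNA cannot be told apart. By count, 1 of 29 was higher (3.45%) against 1.51% of all 10430 detected genes, and 2 of 29 were lower (6.90%) against 1.16%. Of the 9405 genes detected on both arrays, as all 29 were, 150 were at least 1.5-fold higher and 117 lower. By a smaller rule, a ratio of at least 5 to 4 between the arrays, 4 of 29 were higher (13.8%), against 7.12% of all detected genes, and 6 of 29 lower (20.7%), against 6.99%. The other genes higher by that rule were MVD, TM7SF2 and ACLY, and the others lower were INSIG1, MSMO1, LSS and FASN. The remaining 19 lay within it. After background correction MVD also passed 1.5-fold. That made 2 of 29 higher (6.90%), against 6.63% of all detected genes, and 2 of 29 lower (6.90%), against 5.53%. Both shares then lay near those of all detected genes. Counting any size, 14 were higher and 15 lower, beside 48% and 51.9% of the 9405 genes detected on both arrays.

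**Figure D1:**
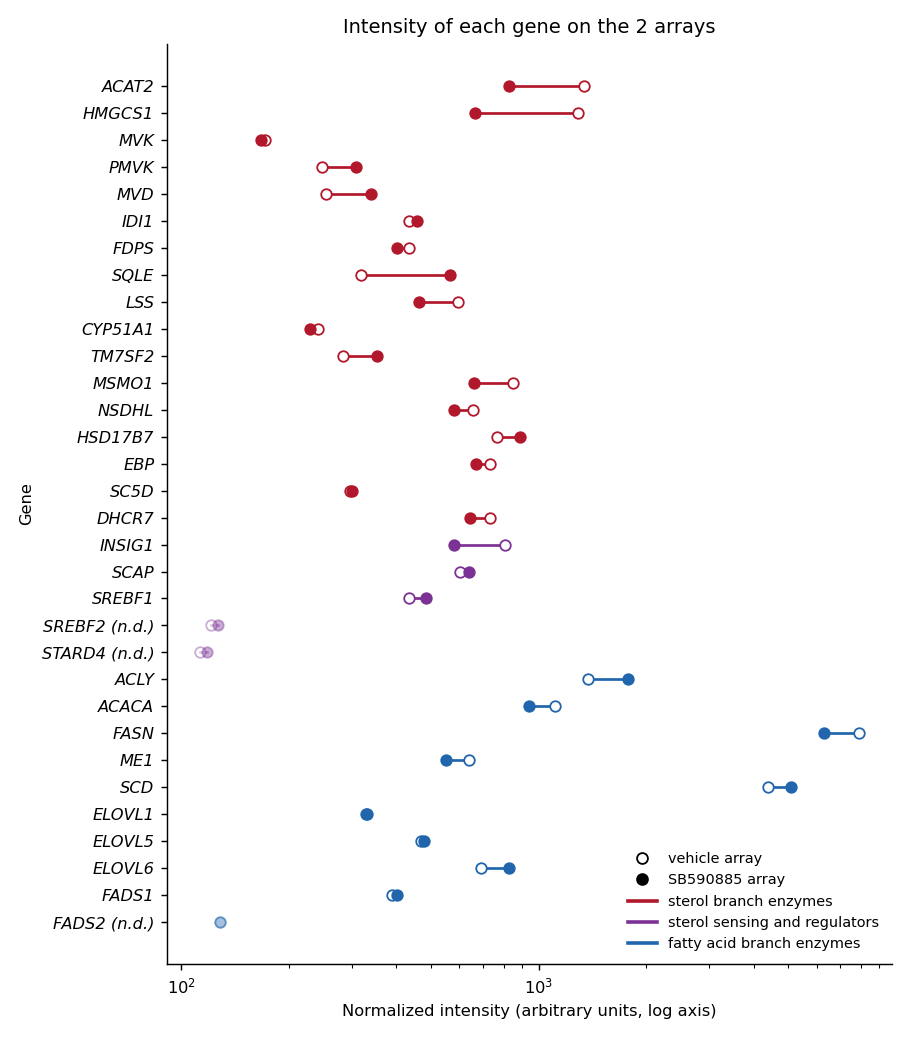
Normalized intensity (arbitrary units, log axis) of the chosen probe of each gene on the vehicle array (open circles) and the SB590885 array (filled circles), in pathway order and coloured by group; each circle is 1 array, and n.d. marks 3 genes not detected on either. The longest lines are those of HMGCS1 and ACAT2, whose filled circles lie to the left, and SQLE, whose filled circle lies to the right.

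The pathway starts with ACAT2, the cytosolic thiolase that joins acetyl-CoA units. Its intensity was 1337.8 with vehicle and 826.9 with SB590885, a log2 ratio of -0.69. HMGCS1, the cytosolic synthase that adds the next unit to give HMG-CoA, went from 1291.3 to 663, a log2 ratio of -0.96. Ranked from the lowest ratio among the 9405 genes detected on both arrays, HMGCS1 was number 18 and ACAT2 number 69. Neither gene had a second detected probe, so each value rests on 1 probe per array.

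The kinases and the decarboxylase that turn mevalonate into isopentenyl diphosphate did not share that direction. MVK, mevalonate kinase, measured 171.4 and 167.1 on the vehicle and SB590885 arrays, a ratio within 1.03-fold. PMVK, phosphomevalonate kinase, measured 247.5 and 308.5, and its 1.246-fold higher value lay just short of the smaller rule. MVD, the decarboxylase, measured 254 and 340.2 and was 1.34-fold higher, or 1.55-fold after background correction. The next genes were flat. IDI1, which isomerizes isopentenyl diphosphate, stood at 433.9 and 456.3, and FDPS, which condenses the units to farnesyl diphosphate, at 433 and 400.3. Within this first part of the branch the log2 ratios of 7 genes thus ran from -0.96 at HMGCS1 to 0.42 at MVD, with an SD of 0.51 across genes.

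SQLE, squalene epoxidase, makes the first oxygenation of the branch and is one of its rate-controlling steps. Its brighter probe read 319.1 with vehicle and 563.4 with SB590885, a log2 ratio of 0.82, number 48 from the highest of 9405. Its second detected probe read 156.7 and 201, in the same direction and smaller at 0.36. After background correction the log2 ratios of these probes were 1.07 and 0.80. LSS, the cyclase that follows and makes lanosterol, lay on the other side, at 595.1 and 463.8 with a log2 ratio of -0.36. Its other probes, with ratios of -0.10 and 0.11, were each detected on 1 array only, with intensities from 122.5 to 136.6 against lowest detected intensities of 132.2 and 129.8.

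Of the enzymes that trim lanosterol to cholesterol, MSMO1 was the lowest and TM7SF2 the highest. MSMO1, the C4-methyl oxidase once named SC4MOL, read 848.7 and 660.6 and was 1.28-fold lower. Its other probes gave log2 ratios of -0.34 and -0.02 beside -0.36 for the brightest. After background correction these were -0.74 and -0.04 beside -0.42. TM7SF2, a sterol C14 reductase, read 282.9 and 353.7, a log2 ratio of 0.32, just past the smaller rule. HSD17B7, which reduces the keto group at C3, read 763.4 and 887.7, 1.16-fold higher.

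The other enzymes of these late steps lay within 1.14-fold. DHCR7, the last reductase of the Kandutsch-Russell route, read 732.7 and 644, a log2 ratio of -0.19, and its second probe gave -0.17. NSDHL, which works with MSMO1 in removing the C4 methyl groups, read 654.2 and 581.2. EBP, the sterol isomerase, read 730.7 and 669.1, and CYP51A1, the lanosterol demethylase, 241.2 and 229.2. SC5D, the C5 desaturase, was closest to its vehicle value, at 296.2 and 300.3. RefSeq names 10 pseudogenes of FDPS, 3 each of CYP51A1 and IDI1, 2 of HSD17B7 and 1 of SCD. Whether the probes for these genes also bind such copies was not tested.

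**Figure D2:**
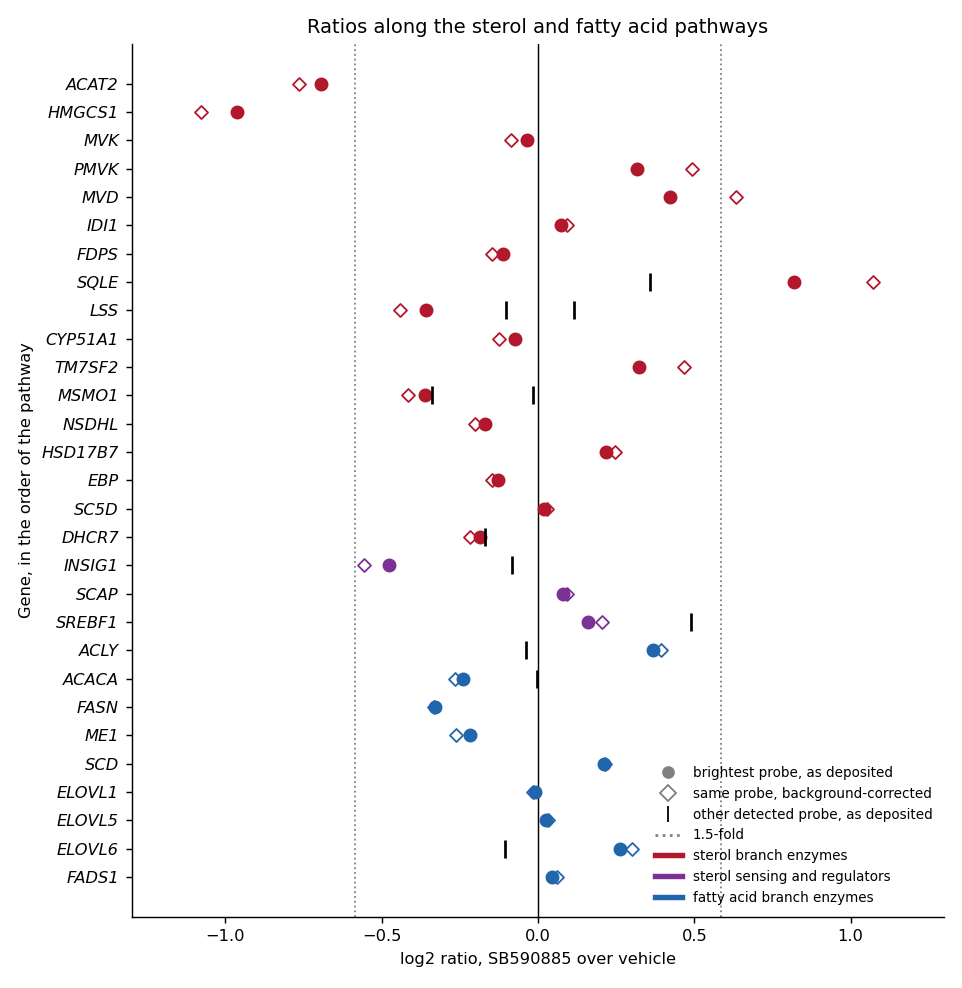
The log2 ratio of SB590885 over vehicle for the 29 detected genes in pathway order; filled circles are the brightest probe as deposited, open diamonds the same probe after background correction, vertical ticks other detected probes, and dotted lines 1.5-fold. The circles of HMGCS1 and ACAT2 lie left of the lines and that of SQLE right of them, and MVD crosses the right line only as a diamond.

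Over the 17 sterol enzymes, 7 were higher and 10 lower, beside 48% and 51.9% of all genes detected on both arrays. The median log2 ratio was -0.07, against -0.01 over all genes detected on both arrays. Their spread was wider as deposited: the SD of log2 ratios across the 17 genes was 0.42, and across all genes detected on both arrays 0.25. The base was dimmer, with a median vehicle intensity of 273.9 over all detected genes and 603.9 over the 29 genes described here. Background left in shrinks the ratios of dim probes, and the spread after background correction was not compared. Before squalene the median was -0.04 over 7 genes, and after it -0.10 over 10 genes. Neither stretch lay to one side. These medians and spreads describe genes on 1 pair of arrays and carry no test.

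Among the regulators, INSIG1 was lower and SREBF1 and SCAP differed less. INSIG1, the sterol-dependent anchor, read 806.3 with vehicle and 578.8 with SB590885 and was 1.39-fold lower, number 241 from the lowest. Its second, dimmer probe read 167.3 and 157.8, a log2 ratio of -0.08. After background correction the log2 ratios of the INSIG1 probes were -0.56 and -0.21. SREBF1 read 434.4 and 485.3 by its brightest probe, a log2 ratio of 0.16, and 169 and 236.9 by another, a log2 ratio of 0.49. After background correction those ratios were 0.20 and 0.96. The probes of SREBF1 thus had the same sign and differed in size. SCAP read 603.9 and 637.5, within 1.06-fold. The median of these 3 genes was 0.08 and their mean -0.08, opposite in sign because INSIG1 weighs on the mean.

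SREBF2 and STARD4 were not detected, and neither was FADS2 of the fatty acid branch. FADS2, the delta-6 desaturase, was the nearest to the limit: its probe read 128.2 with a detection p of 0.0169 and 128.4 with a detection p of 0.0247. SREBF2, the main activator of the sterol genes, read 120.8 and 126.9 with detection p of 0.0987 and 0.0286. STARD4, a cytosolic sterol carrier, read 112.7 and 117.9 with detection p of 0.484 and 0.205. All 29 kept genes had a detection p of 0 on both arrays, in steps of which 770 make 1 unit, so no kept value lay near the limit. FDFT1 and ACSL3 had no named probe and are not analysed here.

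The promoters of 4 genes are shown to set different readings side by side: HMGCS1 and INSIG1 were lower, MVD was higher, and SREBF2 is the sterol activator whose probe was not detected. Each is the 250 bases before the RefSeq start in GRCh38.p14, 5′ to 3′ on the gene's strand. Capitals mark CCAAT or its complement ATTGG, the box bound by NF-Y, a partner of SREBP. In INSIG1 and SREBF2 they also mark a match to CACNCCAC or TCACNCCAC, forms of the sterol regulatory element, the site bound by SREBP. HMGCS1 lies at chr5:43313413-43313662 (minus strand; of its 2 annotated starts the one whose window held CCAAT), INSIG1 at chr7:155297628-155297877 (plus), MVD at chr16:88663092-88663341 (minus) and SREBF2 at chr22:41832855-41833104 (plus).
HMGCS1: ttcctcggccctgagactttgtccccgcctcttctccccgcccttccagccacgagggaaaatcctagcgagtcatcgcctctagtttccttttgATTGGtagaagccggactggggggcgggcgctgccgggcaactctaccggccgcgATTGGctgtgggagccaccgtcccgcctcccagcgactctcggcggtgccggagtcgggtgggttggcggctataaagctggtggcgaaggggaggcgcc
INSIG1: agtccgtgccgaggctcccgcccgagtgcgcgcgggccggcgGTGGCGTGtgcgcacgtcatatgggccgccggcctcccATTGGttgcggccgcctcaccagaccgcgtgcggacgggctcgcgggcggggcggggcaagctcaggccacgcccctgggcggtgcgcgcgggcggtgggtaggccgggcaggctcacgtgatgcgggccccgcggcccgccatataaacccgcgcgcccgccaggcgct
MVD: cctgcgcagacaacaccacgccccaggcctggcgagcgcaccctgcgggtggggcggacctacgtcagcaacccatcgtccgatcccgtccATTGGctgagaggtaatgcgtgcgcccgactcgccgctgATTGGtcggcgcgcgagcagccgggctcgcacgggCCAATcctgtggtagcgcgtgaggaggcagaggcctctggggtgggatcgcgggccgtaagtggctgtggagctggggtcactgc
SREBF2: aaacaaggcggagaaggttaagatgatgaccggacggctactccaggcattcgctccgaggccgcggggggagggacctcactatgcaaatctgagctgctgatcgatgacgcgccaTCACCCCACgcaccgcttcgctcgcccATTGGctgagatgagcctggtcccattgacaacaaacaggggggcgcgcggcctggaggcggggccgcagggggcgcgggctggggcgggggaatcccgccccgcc

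In the windows shown, the CCAAT box was found in genes with opposite ratios. The HMGCS1 window was chosen for holding that box, and the window of its other annotated start held 0. HMGCS1 held 2, starting 155 and 100 bases before the start. MVD held 3, at 159, 120 and 85 bases. INSIG1 held 1 at 170 bases, with the shorter sterol element as GTGGCGTG at 208 bases. SREBF2 held 1 at 106 bases, and the longer sterol element as TCACCCCAC at 133 bases. All searches read both strands of windows of 250 bases before to 50 after a start, counting a gene once if any of its windows matched. The marked motifs did not overlap in the 4 stretches shown.

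A window was matched for 30 of the 34 listed genes; the shares leave out SQLE, ACAT2, FASN and FDFT1. CCAAT was found in 23 of the 30 (76.7%), against 42.1% of the 15843 protein-coding genes with a window, which is the reference for each motif here. Of the sterol enzymes 13 of 15 held it, and of the fatty acid genes 7 of 10. GGGCGG, the GC box bound by Sp1, was found in 28 of 30 (93.3%) against 64.3%. CACNCCAC was found in 6 of 30 (20.0%), ACACA, IDI1, INSIG1, SC5D, SCD and SREBF2, against 7.98%. TCACNCCAC, which contains the shorter form, was found in SREBF2 alone of the 30, against 1.51%. The E-box CACGTG was found in 5 of 30 (16.7%), INSIG1, SCAP, LSS, ELOVL5 and SC5D, against 10.9%. The shares are descriptions: a match of letters is not a bound site, and the arrays do not measure binding.

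In the fatty acid branch none of the 9 detected genes passed 1.5-fold as deposited or after background correction. Counting any size, 5 were higher and 4 lower, beside 48% and 51.9% of all genes detected on both arrays. The median log2 ratio was 0.03. The SD across genes was 0.24, near the 0.25 of all genes detected on both arrays, both with background left in. ACLY was highest and FASN lowest.

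ACLY, which splits citrate to supply cytosolic acetyl-CoA, read 1374.4 and 1775 and was 1.29-fold higher by its brightest probe. Its second probe read 901.8 and 878.8, a log2 ratio of -0.04, so the probes of ACLY did not repeat the difference. ACACA, acetyl-CoA carboxylase 1 and the committed step of fatty acid synthesis, read 1109.1 and 938.6, a log2 ratio of -0.24. Its second probe was flat, at 923.1 and 921.3. FASN, the synthase that makes palmitate, read 7912.8 and 6301.4 and was 1.26-fold lower by its 1 named probe. ME1, the cytosolic malic enzyme that supplies NADPH, read 638.7 and 549, a log2 ratio of -0.22.

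The detected genes that elongate or desaturate fatty acids were level or slightly higher by their brightest probes. SCD, which puts the first double bond into saturated fatty acids, read 4391.2 and 5080.1, 1.16-fold higher. ELOVL6, the elongase of palmitate to stearate, read 689.9 and 827.6, 1.20-fold higher, but its second probe read 484.5 and 449.9, a log2 ratio of -0.11. The probes of ELOVL6 thus went opposite ways. ELOVL5, an elongase of polyunsaturated chains, read 469.2 and 477.4. ELOVL1, an elongase of very long saturated chains, read 330.5 and 328, and FADS1, the delta-5 desaturase, 389.6 and 402.3. These last 3 were within 1.04-fold of vehicle.

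**Figure D3:**
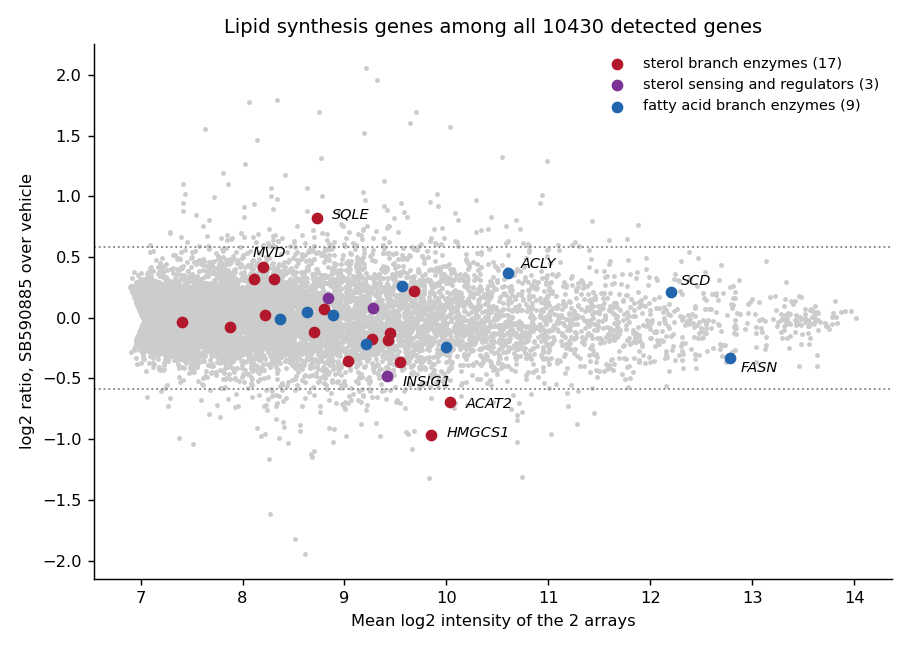
The log2 ratio of SB590885 over vehicle against the mean log2 intensity of the arrays for 10430 detected genes (grey), with sterol enzymes (red), regulators (purple) and fatty acid genes (blue); dotted lines mark 1.5-fold. HMGCS1 and ACAT2 lie below the lower line, SQLE above the upper one, and every fatty acid gene between the lines.

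Different probes for 1 gene are the only repeated measurement on these arrays. They read the RNA of the same cultures, so they repeat the reading of a gene and not the treatment. Of the 29 genes, 9 had several detected probes, and in 6 of the 9 (66.7%) all had the same sign: SQLE, MSMO1, DHCR7, INSIG1, SREBF1 and ACACA. Over all 2631 such genes the share was 60.4%. LSS, ACLY and ELOVL6 had probes of both signs. ACACA was counted as the same sign with its second probe at -0.003. Between the 2 brightest probes of a gene, log2 ratios differed with an SD of 0.34 over the 9 genes and 0.25 over all 2631. DHCR7 repeated most closely, at -0.19 and -0.17. The lower value of HMGCS1 and that of ACAT2 could not be checked this way, since 20 of the 29 genes, these among them, had 1 detected probe.

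Neighbouring pathways were listed to set these genes beside the reactions that feed them and use their products. Of 100 detected genes in 7 such lists, 1 was at least 1.5-fold higher and none lower, beside 1.51% and 1.16% of all detected genes. By the smaller rule 8 were higher and 8 lower, near the 7.12% and 6.99% of all detected genes. After background correction 3 were past 1.5-fold higher (ACSL5, MBTPS1 and AGPAT1) and 1 lower (AGPAT4), beside 6.63% and 5.53%. Their median log2 ratio was -0.02. The gene past 1.5-fold as deposited was ACSL5, which activates long-chain fatty acids to acyl-CoA. It read 870.1 and 1351.5 and was 1.55-fold higher, and its other probes gave log2 ratios of 0.63 and 0.22. All detected probes of ACSL5 were thus higher with SB590885.

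The list of SREBP processing and turnover, which holds proteases, retention factors and degradation factors, had a median of -0.14. Of its 10 detected genes 7 were lower, beside 51.9% of all genes detected on both arrays. Its proteases lay on opposite sides. MBTPS1, the site-1 protease that makes the first cut, was its highest, at 783.9 and 1141.7, 1.46-fold higher, with a second probe at 0.31. MBTPS2, the protease of the second cut, read 305.3 and 254.1. TMEM97, the sigma-2 receptor and a sterol-regulated gene, was the lowest, at 1841.8 and 1481.2, a log2 ratio of -0.31, whereas its second probe gave 0.22. INSIG2, the second anchor of SCAP, read 244.6 and 228.3.

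For supply of acetyl-CoA and NADPH the median was -0.07 and no gene passed 1.5-fold. Counting any size, 9 of 10 detected genes had a negative log2 ratio, beside 51.9% of all genes detected on both arrays, and some lay as close to vehicle as PDHB, of pyruvate dehydrogenase, at 2022.9 and 2013.6. ME2, a mitochondrial malic enzyme, was the lowest, at 816.3 and 592.5, while its second probe gave 0.02. SLC25A1, the mitochondrial citrate exporter, read 777.3 and 653. ACSS2, which makes acetyl-CoA from acetate, read 743 and 715.3, and its second probe went the other way, at 656.9 and 776.2, while a dimmer one gave a log2 ratio of -0.09. CS, citrate synthase, was the one higher gene, at 2587.9 and 2869.9, with other probes at 0.14 and -0.05.

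Genes of isoprenoid use had a median of -0.08, with 9 of 14 lower, beside 51.9% of all genes detected on both arrays. ZMPSTE24, a protease of prenylated proteins, read 1589.9 and 1209.3, 1.31-fold lower, and ICMT, which methylates prenylated ends, 397 and 497.8, a log2 ratio of 0.33. Genes of cholesterol transport, storage and efflux had a median of 0.06. Of 15 such genes 9 were higher, beside 48% of all genes detected on both arrays. The list ran from CAV1, caveolin-1, at 4309 and 3349.9, to LPCAT3, a phospholipid acyltransferase and liver X receptor target, at 331.2 and 415.7. The second probe of CAV1 gave -0.43 beside -0.36.

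Downstream of palmitate the lists were centred near 0. The share to set beside their counts of higher genes is 48%, that of all genes detected on both arrays. Other elongation, desaturation and activation genes had a median of 0.03, with 11 of 16 higher, and their lowest gene was HACD2, a dehydratase of the elongation cycle, at 1315.9 and 1073. Glycerolipid synthesis had a median of 0.05 with 9 of 17 higher. It ran from AGPAT4 (191.7 and 144.8) to AGPAT1 (202.2 and 277.7), both lysophosphatidic acid acyltransferases, and its mean was -0.03, opposite in sign to the median. Fatty acid oxidation had a median of -0.02 with 8 of 18 higher, from ETFA, an electron transfer flavoprotein subunit, at 2486.4 and 1952.9, to ECI2, an enoyl-CoA isomerase, at 879.3 and 1184.1.

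**Figure D4:**
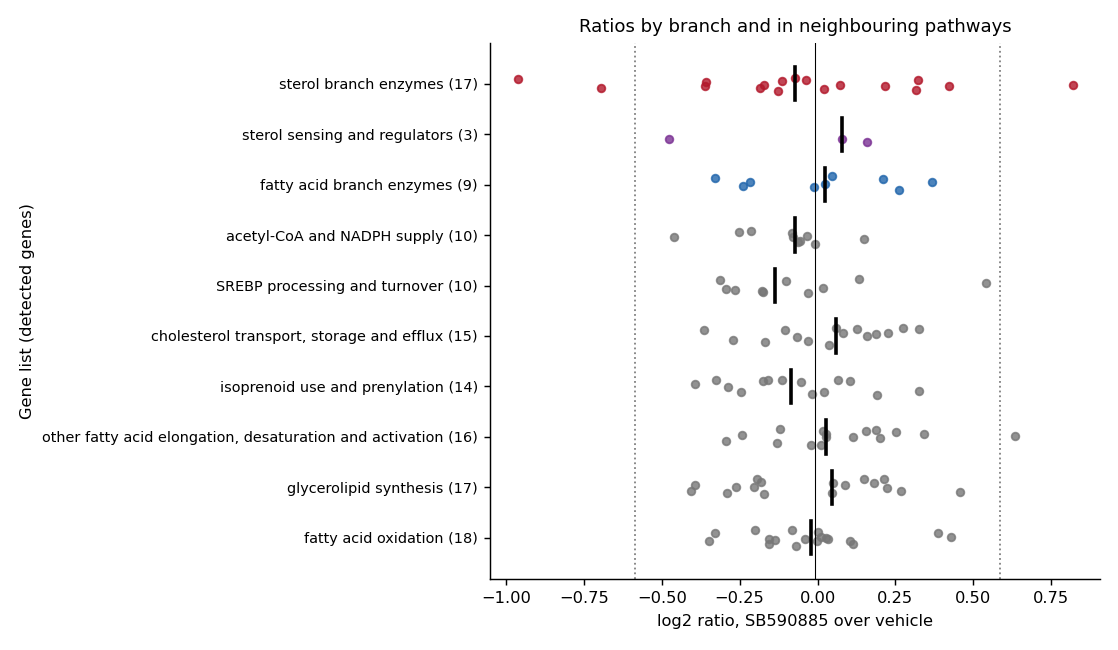
The log2 ratio of SB590885 over vehicle of each detected gene (points) in the 3 groups described and in 7 neighbouring pathways, with the number of genes in brackets; black bars are medians, the thin line is the median of all genes detected on both arrays, and dotted lines mark 1.5-fold. Medians lie between -0.14 and 0.08, and the sterol enzymes have the outermost points on both sides.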

How the data were processed

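Total RNA of 2 HCT116 cultures was turned into biotin-labelled cRNA (Ambion MessageAmp), per the labels' protocols. Which software read the arrays and how it normalized them is not given in the sources used here. The values used are linear intensities that the authors deposited as normalized. Their sorted values differ between arrays by at most 0.129 units, and they equal the series matrix. The detection p-values deposited beside them give detection per probe. The table deposited as non-normalized holds the same intensities times 1.025, and its deposited detection score is that p times 1.025, reaching 1.025, so no raw signal was used. Probes were named through platform annotation (30111 probes with 1 gene, 8 with several, left unnamed). Symbols were updated through Entrez with RefSeq's GRCh38.p14 for 30072 probes. The members and lists were chosen with earlier results of these data known. Named are all listed genes, and from the other lists each gene past 1.5-fold and the highest and lowest gene. MBTPS2, INSIG2, SLC25A1, ACSS2 and PDHB were named after their values were seen. Background correction was limma 3.58.1 neqc (offset 16, negative controls inferred from detection p) in R 4.3.3. A gene detected on 1 array only was counted past a fold only if its bound was, against the lowest detected intensity on the other array; after background correction its measured ratio was used. The scripts were checked on simulated arrays with known folds, which is no test of the differences reported.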

Additional observations from a re-analysis of the deposited data

How the results depend on the processing

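Background correction, median centring after it and an offset of 16 added without correction left HMGCS1 and ACAT2 past 1.5-fold lower and SQLE past 1.5-fold higher. The same held with 3 other detection filters, the mean of all detected probes and the non-normalized table, but several of these could not differ. The non-normalized table is the normalized one times 1.025, so its ratios are the same. All 29 genes had a detection p of 0 on both arrays, so no filter could drop them. HMGCS1 and ACAT2 had 1 detected probe each, so of the genes past 1.5-fold the mean of detected probes could move only SQLE. With neqc at an offset of 16, and with that correction followed by median centring, 2 genes were past 1.5-fold higher, MVD having joined SQLE, while 6.63% of all detected genes were higher and 5.53% lower under the first of these. The rule of 5 to 4 gave 4 higher and 6 lower. No gene of the 29 changed sign under any of these. The mean of detected probes moved 5 genes by more than the per-probe SD of 0.17 on the log2 scale, to 0.59 for SQLE, -0.12 for LSS, -0.28 for INSIG1, 0.17 for ACLY and 0.08 for ELOVL6. List medians moved by less than that SD. No paired analysis was possible because each condition has 1 array, and for the same reason no array could be left out.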
